A study of Mus musculus with 1600 samples.

Results

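Genes of the kidney tubule were read in a study of glomerular cells, and 10 of them are described here: Fxyd2, Atp1b1, Cdh16, Spp1, Umod, Slc12a1, Slc34a1, Lrp2, Aqp1 and Aqp2. They form a list of tubular epithelial genes and were taken by symbol, as 10 of the 45792 gene identifiers in the deposited tables. Their reads were followed by pool, by the number of cells imaged in a well and by the wells around it. Diabetes was induced with streptozotocin, which kills pancreatic beta cells: 5 daily doses of 50 µg per g of body weight, begun when the mice were 8 weeks old. The control mice were given the citrate vehicle. All mice were Nos3-/- on C57BL/6, so the controls also lacked endothelial nitric oxide synthase, and all were 10 weeks old. Glomeruli of 3 mice were pooled per condition in each of 2 experiments, isolated with magnetic beads, digested to single cells and loaded on a Fluidigm C1 chip with 800 wells (40 rows by 20 columns). Each of the 4 pools (2 of diabetes mice, 2 of control mice) filled 400 wells of the chip that its experiment's other condition also used.

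The nephron's tubule starts at the glomerular capsule and runs through the proximal tubule, the loop of Henle with its thick ascending limb, the distal tubule and the collecting duct. Each segment moves salt and water with its own set of channels and transporters, powered by the sodium pump. A glomerulus holds endothelial, mesangial and epithelial cells (podocytes and the capsule's parietal cells) and no tubule. Among the 10 genes, Atp1b1 encodes the beta subunit of the sodium pump and Fxyd2 its gamma subunit. Cdh16 encodes kidney-specific cadherin, and Spp1 the secreted protein osteopontin. Umod (uromodulin) and Slc12a1 (the sodium-potassium-chloride cotransporter) belong to the thick ascending limb. Slc34a1 (a sodium-phosphate cotransporter) and Lrp2 (the endocytic receptor megalin) belong to the proximal tubule. Aqp1 is the water channel of the proximal tubule and thin descending limb, which some endothelial cells also make, and Aqp2 is the water channel of the collecting duct's principal cells.

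By imaging, 588 wells were empty, 833 held 1 cell and 98 held 2 cells, while the remaining 81 held debris or a larger number of cells. Of the 833 single-cell wells, 639 were kept for the main comparisons, because at least 500 genes had a read and at most 30% of the reads came from the mitochondrial genome. In experiment 1, the kept single-cell wells had a median of 43577 reads in diabetes and 32222 in control, against 2397 and 2212 in empty wells. In experiment 2, the kept wells had medians of 176715 in diabetes and 219072 in control, against 32994 and 33610 in empty wells. All 98 and 111 empty wells of experiment 2 passed 500 genes, against 116 of 184 diabetes and 115 of 195 control wells in experiment 1. The kept wells fell into clusters that carried glomerular markers: 232 endothelial-like, 116 mesangial-like and 80 podocyte-like wells, besides 80 immune-like wells and smaller clusters. Xist, the RNA of the inactive X chromosome, was at 1.42 and 1.4 CPM (counts per 1000000 counts in the summed wells) in the 2 diabetes pools, against 356 and 442 in the 2 control pools. Ddx3y, a gene of the Y chromosome, was at 91 and 95.9 CPM in diabetes pools, against 0 and 0.273 in control pools. The design text calls the littermates sex-matched, but in these libraries condition and sex-linked expression cannot be told apart.

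Reads of the 10 genes were concentrated in few wells. The tables held 116959 such reads, and 101144 of them (86.5%) lay in 72 of the 1600 wells, those in which 3 or more of the genes had 10 reads or more. Of the 72 wells, 41 had more reads of the 10 genes than any well within 2 rows of them in the same array column. These 41 wells are called peak wells here. They were chosen by their member reads after the distribution had been seen, so their high values are a description. They held 94000 reads, 80.4% of all reads of the 10 genes, in 2.56% of the wells. Imaging, which the choice did not use directly, had counted 1 cell in 32 peak wells, 2 cells in 5, more than 2 cells or debris in 3, and no cell in 1. Over all 1600 wells these counts were 833, 98, 81 and 588. Peak wells were chosen on reads not scaled for depth, and empty wells had fewer reads in all. The imaging counts are therefore not independent of the choice. Diabetes experiments 1 and 2 had 14 and 8 peak wells, and control experiments 1 and 2 had 12 and 7.

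Peak wells differed in which segment genes they held. Umod and Slc12a1 occurred together: 24 wells had 10 reads or more of both, which was 72.7% of the 33 wells with Slc12a1 and 41.4% of the 58 wells with Umod at that level. Aqp2 reached 10 reads in 11 wells, and in 10 of these Cdh16 did too, while Umod and Slc12a1 did so in 0 of the 11. Over all 1600 wells Umod did so in 58 and Slc12a1 in 33, so 0 of 11 is near those shares. The 11 wells include rows 1, 2, 3, 4 and 8 of array column 10 in diabetes experiment 2. With the reads of Umod and Slc12a1 added together, and likewise those of Slc34a1 and Lrp2, 92 wells had 10 reads or more of the thick ascending limb sum, the proximal sum or Aqp2. Of these, 71 reached it for the thick ascending limb sum alone, 9 for the proximal sum alone and 11 for Aqp2 alone, while 1 well reached it for both sums. Among the 41 peak wells, 19 held thick ascending limb genes, 5 proximal genes (1 of them both) and 5 Aqp2. The remaining 13 reached 10 reads for neither sum nor Aqp2, and 2 of them had 10 reads or more of Aqp1, with 73 and 53. Wells of 1 array column can hold the same mixture of reads, so these counts are not counts of separate cells.

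The start regions of Umod and Aqp2 are printed as those of a thick ascending limb gene and a collecting duct gene. Each line gives the 250 bases before RefSeq's transcription start (GRCm38.p6), 5′ to 3′ on the gene's strand, for Umod on chr7:119479263-119479512 (minus strand) and for Aqp2 on chr15:99578806-99579055 (plus strand). Capitals mark GTTAAT, a half-site of the HNF1 motif, in Umod, and ACGTCA, the reverse complement of the cyclic AMP response half-site TGACGT, in Aqp2.
Umod: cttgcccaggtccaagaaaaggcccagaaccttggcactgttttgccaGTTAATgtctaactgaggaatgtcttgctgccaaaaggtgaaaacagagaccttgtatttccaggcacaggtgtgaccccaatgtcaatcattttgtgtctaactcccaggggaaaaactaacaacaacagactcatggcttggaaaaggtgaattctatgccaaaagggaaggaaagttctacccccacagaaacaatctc
Aqp2: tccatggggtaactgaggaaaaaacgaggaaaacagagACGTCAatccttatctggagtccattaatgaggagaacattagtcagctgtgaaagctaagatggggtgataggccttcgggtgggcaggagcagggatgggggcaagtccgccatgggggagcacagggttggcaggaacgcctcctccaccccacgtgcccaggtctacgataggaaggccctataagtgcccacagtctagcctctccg
Both motifs were searched on both strands. GTTAAT began 202 bases before the Umod start and was not among the letters of the Aqp2 window, and TGACGT, which began 212 bases before the Aqp2 start on the opposite strand, was not among those of the Umod window. Of 32851 promoter windows of this length, 6.43% held GTTAAT and 6.47% held TGACGT, so either motif is common and a match is a description only.

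Some of the reads in empty wells lay beside peak wells. In diabetes experiment 2, array column 10, the well in row 1 held 1 imaged cell, with 4052 reads of Aqp2, 3604 of Spp1, 2196 of Cdh16 and 1493 of Atp1b1, and 0 of Umod and Slc12a1. The empty wells in rows 2, 3 and 4 held 35, 74 and 45 reads of Aqp2, 27, 46 and 22 of Spp1, and 14, 37 and 26 of Cdh16, also with 0 of Umod and Slc12a1. The single-cell wells in rows 5, 6 and 7 of the same column held 6, 1 and 0 reads of all 10 genes, and the empty wells in rows 8 and 9 again held 52 and 20. The row 8 well is the 1 peak well that was imaged as empty. In rows 2 to 9 of that column the 5 empty wells held between 20 and 182 reads of the 10 genes, and the 3 single-cell wells between them held 6 or fewer.

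Reads beside peak wells were also seen for thick ascending limb genes in control experiment 1, array column 5. The single-cell well in row 19 held 1412 reads of Umod and 1308 of Slc12a1. The empty wells in rows 18 and 20, next to it, held 52 and 125 reads of Umod and 57 and 135 of Slc12a1. The single-cell well in row 21, farther from it, held 0 of Umod and 1 of Slc12a1. A single-cell well in row 25, next to the peak well in row 24, held 37 reads of Umod and 19 of Slc12a1. In control experiment 2, array column 20, the well in row 38, with more than 2 cells or debris, held 15410 reads of the 10 genes. The single-cell wells on either side of it, in rows 37 and 39, held 1391 and 527 reads. Umod made up 33% and 33.2% of these, beside 31.2% in row 38. The wells in rows 36 and 40 held 22 and 10 reads of the 10 genes.

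**Figure D1:**
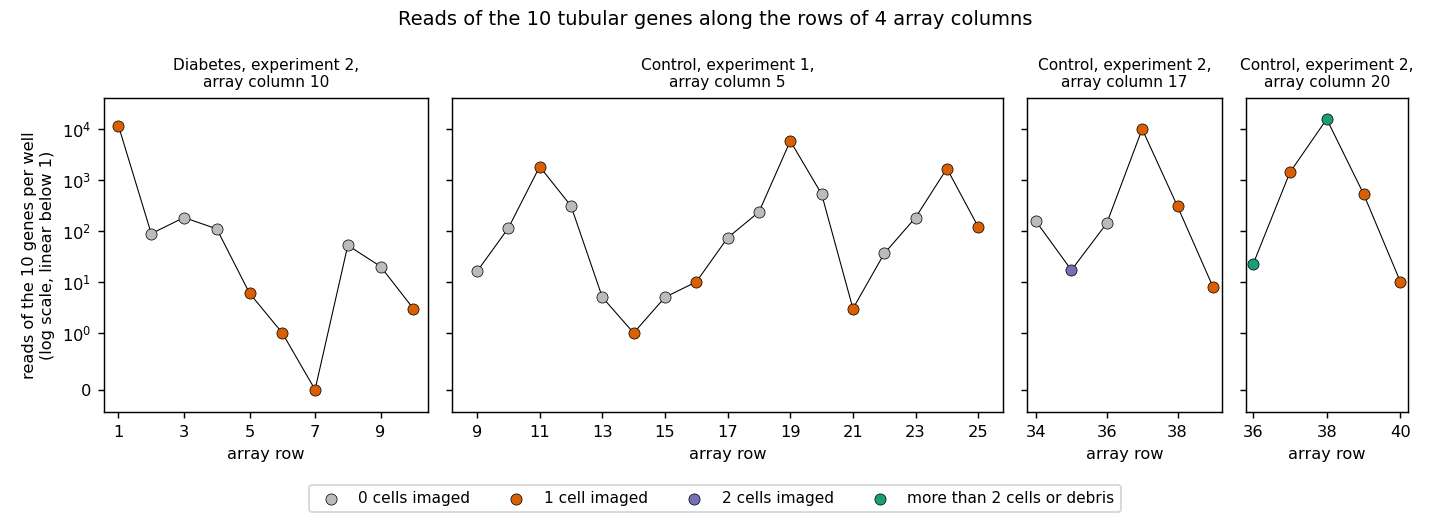
Reads of the 10 genes per well (log scale, linear below 1) along the rows of 4 array columns, with points coloured by the number of imaged cells. Reads were highest at single wells and lower in the rows beside them, some of which were imaged as empty (grey), as in row 18 and row 20 of control experiment 1.

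Over all peak wells, reads in neighbouring wells depended on the direction. In the 78 other wells 1 row away in the same column, 75 had reads of the 10 genes, with a median of 38 reads (quartiles 17.2 and 106), or 5.78% of the reads of the peak well. In the 74 wells 2 rows away the median was 3 reads, or 0.362%. In the 67 wells of the same row in the next column the median was 2 reads, or 0.0861%. That a neighbour within 2 rows has fewer reads than the peak well is fixed by the choice of peak wells, but the difference between rows and columns is not. The mixture was shared too: across 68 wells 1 row away with 10 reads or more, the cosine similarity of the 10 read counts to those of the peak well (1 where proportions are equal) had a median of 0.983. Between peak wells of different columns the median was 0.49 over 794 pairs.

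Genes of other cell types had values of the same size beside their own peak wells. With peak wells defined in the same way from other marker lists, empty wells 1 row away held a median of 7.26% of the peak well's reads for the podocyte list (105 wells), 7.56% for the mesangial list (104 wells), 6.95% for the endothelial list (196 wells) and 6.69% for the immune list (52 wells), beside 6.68% for the 10 tubular genes (26 wells). At 2 rows the medians were 1.86%, 1.67%, 2.2% and 0.83% for those 4 lists, and 0.416% for the tubular genes. The cause was not tested.

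**Figure D2:**
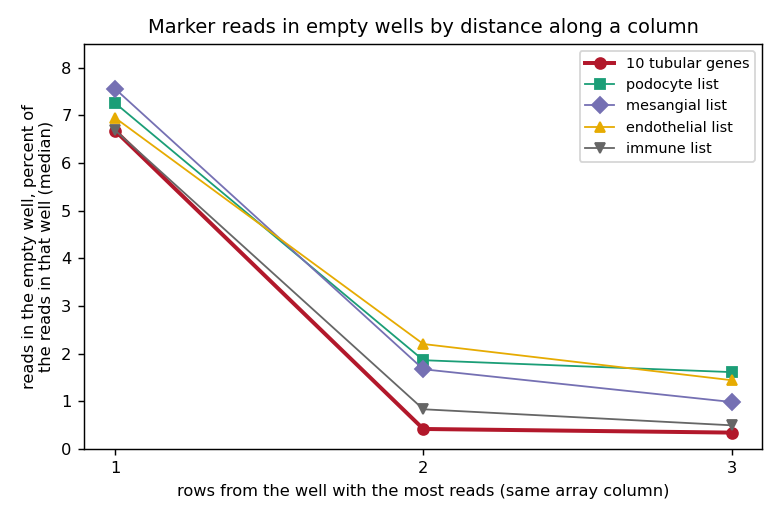
Median reads in empty wells as a percent of the reads in the peak well (y axis), by the number of rows between them in the same array column (x axis), for the 10 tubular genes and 4 marker lists. At 1 row all 5 lines lie between 6.68% and 7.56%, and at 2 rows all lie at 2.2% or below.

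By distance, 26 empty wells (4.42% of the 588) lay 1 row from a peak well and held 2740 of the 7025 reads of the 10 genes in empty wells, which is 39%. A further 5.75% lay 2 rows away and 33.1% lay 3 rows or more away in the same column. All 26 had such reads, at 7629 CPM. The 233 empty wells in columns without a peak well held 21.4% of the reads, at 300 CPM, and 44 of the 233 had any. Of these 1503 reads, 1241 lay in diabetes experiment 2, at 445 CPM, against 125 and 117 CPM in control experiments 1 and 2. The part within 1 row was 49% and 4.82% in diabetes experiments 1 and 2, and 83.8% and 26.8% in control experiments 1 and 2. In diabetes experiment 2 the larger part, 55.4%, lay in columns without a peak well. In diabetes experiment 2, 1 empty well of column 3, which had no peak well, held 48.1% of the reads in that pool's empty wells. This well is among the 233, so the 300 CPM rest in large part on it. Over the 10 columns of each pool, the CPM of the 10 genes in empty wells followed those in wells with a cell, with a Spearman correlation of 0.43 and 0.711 in diabetes experiments 1 and 2 and 0.939 and 0.733 in control experiments 1 and 2. Columns of 1 pool share a chip and a suspension, and the correlations are descriptions.

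Most peak wells with 1 cell were not among the kept wells. Of the 32, 25 had more than 30% mitochondrial reads and 7 were kept (3 and 1 in diabetes experiments 1 and 2, 3 and 0 in control). Their median mitochondrial share was 36.5%, with a range of 3.34% to 58.3%, against 12.8% in the 784 single-cell wells without several of the genes, of which 159 (20.3%) were over the limit. The 25 wells left out held 44899 reads, 38.4% of all reads of the 10 genes. Over the limit were 9 of 12 and 5 of 6 single-cell peak wells in diabetes experiments 1 and 2, and 9 of 12 and 2 of 2 in control. Tubular cells are known to be rich in mitochondria, and the part of cell quality in these shares was not tested.

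**Figure D3:**
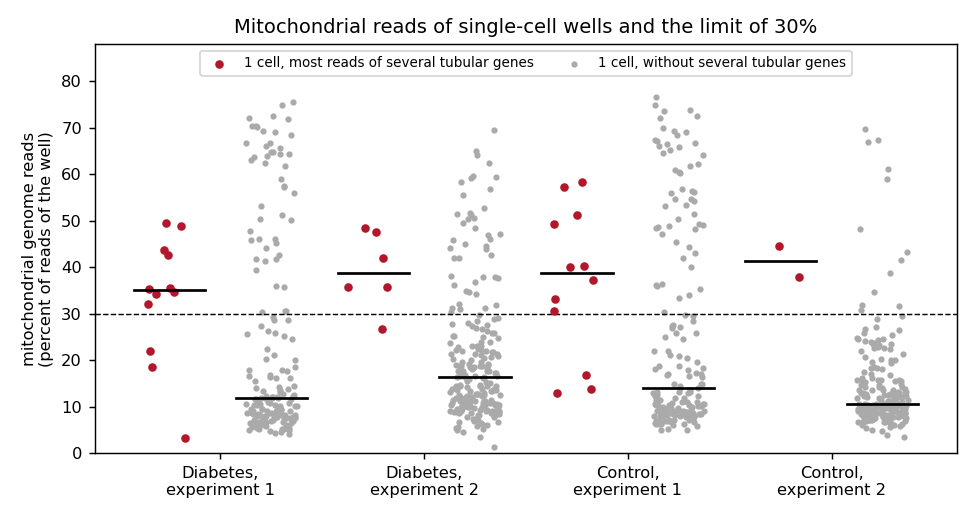
Percent of reads from the mitochondrial genome (y axis) in wells with 1 imaged cell, by pool, for peak wells (red) and for wells without several tubular genes (grey), with the median of each as a bar and the limit of 30% as a dashed line. Of 32 red points 25 lie above the line, and of 784 grey points 159.

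Clustering without the 10 genes placed the peak wells together. Among the kept wells, 1 cluster of 19 wells was named tubular-like from its other genes; its leading genes were Ldhb, Calb1, Pdzk1ip1, Apela and Defb1. It held 7 of 128 wells (5.47%, exact 95% interval 2.23% to 10.9%) and 5 of 188 (2.66%, 0.869% to 6.1%) in diabetes experiments 1 and 2, against 3 of 120 (2.5%, 0.519% to 7.13%) and 4 of 203 (1.97%, 0.539% to 4.97%) in control. Only 6 relabellings exist for 2 pools in each condition, so the smallest two-sided p of an exact permutation test is 2 of 6. All 7 kept peak wells were in this cluster, and 7 of its other 12 wells lay 1 row from a peak well. When all 833 single-cell wells were clustered in the same way, 54 wells were tubular-like, 34 of them over the mitochondrial limit, and they included 30 of the 32 single-cell peak wells. They were 17 of 188 wells (9.04%) and 11 of 238 (4.62%) in diabetes experiments 1 and 2, against 18 of 189 (9.52%) and 8 of 218 (3.67%) in control. The name depended on the settings: at a resolution of 1.2, or with the 10 genes left in, no cluster met the naming rule for tubular-like. At a resolution of 0.5, 5 and 5 wells of diabetes experiments 1 and 2 and 3 and 4 of control were tubular-like.

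Outside that cluster the genes were low, though Aqp1 and Spp1 also occurred without the others. Summed over pools, the tubular-like wells had 1213 CPM of Fxyd2, 1259 of Atp1b1 and 1394 of Cdh16, while each other cluster had at most 22.2 of Fxyd2, 10.8 of Atp1b1 and 4.23 of Cdh16. Within single pools other clusters reached 75.8 of Fxyd2 (16 reads in 1 well), 73.8 of Atp1b1 (33 reads, 90.9% in 1 well) and 21.1 of Cdh16 (2 reads in 1 well). These 3 genes and Spp1 were highest in the tubular-like wells in 4 of 4 pools. Lrp2, Aqp1 and Aqp2 were so in 2 of 4 pools, and Umod, Slc12a1 and Slc34a1 in 1 of 4. In diabetes experiment 2, for example, Umod was at 94.8 in tubular-like and 112 in mesangial-like wells, and Slc12a1 at 0 in tubular-like and 44.6 in endothelial-like wells. CPM values are not scaled for gene length, so levels are compared within a gene only. Of 39 wells with 10 reads or more of Aqp1, 35 had no other of the 10 genes at that level. Of the 19 such wells that were kept, 11 were endothelial-like, beside 232 of all 639 kept wells. In endothelial-like wells Aqp1 was at 121 and 17.9 CPM in diabetes experiments 1 and 2, against 403 and 4.67 in control, with reads in 8 of 46, 12 of 80, 8 of 33 and 8 of 73 wells. In each pool 1 well held most of these Aqp1 reads, at 63.4% and 63.1% in diabetes and 66.1% and 58% in control. Spp1 stood alone in 24 of its 89 wells with 10 reads or more. Of 13 such kept wells 7 were immune-like, beside 80 of all 639 kept wells. In immune-like wells Spp1 was at 339 and 0.64 CPM in diabetes experiments 1 and 2, against 0 and 38.8 in control, but 1 well held 80.9% of the first value and the control pools had 5 and 6 such wells. The value of Umod in mesangial-like wells (32.7 CPM) and that of Slc12a1 in endothelial-like wells (19.9) rested on 1 well each, with 78.2% and 91.6% of the reads.

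**Figure D4:**
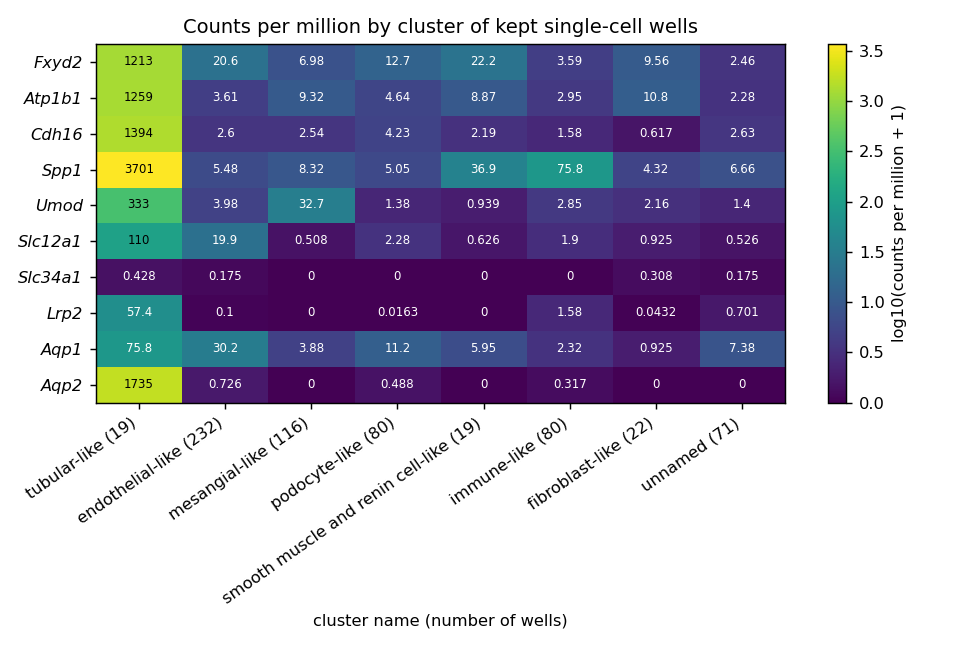
CPM of each gene (rows, printed and coloured on a log10 scale) in the summed reads of each cluster of kept single-cell wells (columns, with the number of wells). Summed over pools, each of the 10 genes has its highest value in the 19 tubular-like wells, from 0.428 for Slc34a1 (1 read) to 3701 for Spp1, but this held within each pool for Fxyd2, Atp1b1, Cdh16 and Spp1 only. Aqp1 in endothelial-like wells (30.2) and Spp1 in immune-like wells (75.8) are the next highest values of their genes.

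In the 620 kept wells outside the tubular-like cluster, 6760 reads of the 10 genes remained. The 28 of these wells that lay 1 row from a peak well had 335 CPM and 20.3% of the reads, against 27.3 CPM in the 245 wells of columns without a peak well. Of the 21 kept single-cell wells with several of the genes, 7 were peak wells, 13 lay 1 row from one and 1 lay farther away.

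The share of reads from the 10 genes was lower in kept single-cell wells than in empty wells. Fxyd2 was at 69 and 14.2 CPM in kept wells of diabetes experiments 1 and 2 and at 373 and 27.5 in those of control, against 348 and 25.3 in empty wells of diabetes and 848 and 107 in those of control. It was lower in kept wells in 4 of 4 pools. Umod was at 12.2 and 21.4 CPM in kept diabetes wells and at 7.77 and 16 in kept control wells, against 136 and 211 in empty diabetes wells and 445 and 141 in empty control wells. Its highest kept value lay below its lowest empty value, but 1 well held 99.3% of the Umod reads in empty wells of diabetes experiment 2. The other 97 of these wells had 1.52 CPM, below the kept wells of that pool. For Fxyd2, 1 well likewise held 79% of the reads in those empty wells, and the others had 5.43 CPM. In the fit over 8 pool sums with pool as a block, Fxyd2 fell by 1.93 on the log2 scale (SE 0.26) and Umod by 4.19 (SE 0.48), with adjusted p = 0.0237 and 0.0195 by edgeR's quasi-likelihood test over 12509 genes. Of the 10 genes, 7 passed the filter on low counts and 2 were lower at an adjusted p under 0.05, beside 27 lower genes among all 12509 (0.216%; 28 in either direction, 0.224%). Of the 28 genes called in either direction, 13 belong to the mitochondrial genome and 9 are predicted genes named Gm. The filter limits mitochondrial reads in single-cell wells alone, and its part in the direction of the 13 genes was not tested. The median mitochondrial share was also lower in all single-cell wells than in empty wells of the same pool. In diabetes experiments 1 and 2 it was 12.2% and 16.7%, against 13.2% and 18.1% in empty wells. In control it was 15% and 10.7%, against 18.5% and 13.6%. Without the 1 well of each pool and kind with the most reads of the 10 genes, an alternative added after the data were seen, neither call held. The log2 differences were then -2.16 for Fxyd2 (SE 0.65, edgeR adjusted p = 0.85) and -3.07 for Umod (SE 1.41, edgeR adjusted p = 0.884).

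The other 5 genes tested did not pass. Slc12a1 was at 2.97 and 21.4 CPM in kept diabetes wells and at 1.47 and 5.7 in kept control wells, against 113 and 15.8 in empty diabetes wells and 435 and 31.2 in empty control wells (log2 difference -3.95, SE 1.54, edgeR adjusted p = 0.889). Atp1b1 was at 59.9 and 47.4 in kept diabetes wells and at 170 and 8.97 in kept control wells, against 185 and 43.2 and against 446 and 63.1 in the empty wells of the same pools (log2 difference -1.79, SE 0.42, edgeR adjusted p = 0.55; DESeq2 called it, at 0.00226). By DESeq2, Fxyd2, Atp1b1 and Umod were lower, 3 of the 7, beside 87 of 12509 genes in either direction (0.695%). Cdh16 was at 44.5 and 68.5 in kept diabetes wells and at 60.9 and 6.51 in kept control wells, against 75.3 and 29.6 and against 169 and 38.6 in the empty wells of the same pools (log2 difference -1.29, SE 0.57, edgeR adjusted p = 0.889). It was lower in kept wells in 3 of 4 pools. Spp1 had a log2 difference of -0.52 (SE 0.42) and Aqp1 one of -0.36 (SE 0.49). Slc34a1, Lrp2 and Aqp2 were too low to be tested. Slc34a1 had 10 reads in all kept wells and 36 in all empty wells, of which 1 well of diabetes experiment 1 held 80.6%. Lrp2 had 157 reads in kept wells and 6 in empty wells. Aqp2 had 4090 in kept wells, 4052 of them in the single well described above, and 223 in empty wells. Among the loop and distal tubule genes outside the 10, 8 of 14 were tested and 0 passed, with a median log2 difference of -3.0, beside 0.03 over all genes. Of the general tubular list 9 of 15 were tested, 0 passed, and the median was -0.64. Of the proximal list 3 of 20 were tested and 0 passed. With no limits on single-cell wells, the medians were 0.52 for the loop and distal tubule list (12 of 14 tested) and 0.41 for the general list (11 of 15 tested), and 0 passed in each.

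This direction depended on the limits on genes and mitochondrial reads. With all 833 single-cell wells, Fxyd2 was at 372 and 86.7 CPM in diabetes experiments 1 and 2 and at 772 and 177 in control, above the empty wells in 3 of 4 pools. Umod was at 181 and 21 in diabetes and at 507 and 49.7 in control, above the empty wells in both pools of experiment 1 and below them in both of experiment 2. The log2 differences from empty wells were then 0.40 for Fxyd2 (SE 0.28), 0.04 for Atp1b1 (SE 0.27), 0.15 for Cdh16 (SE 0.40), 0.50 for Spp1 (SE 0.23) and -1.22 for Umod (SE 0.58). None of 8 genes tested passed by edgeR and 0 had an unadjusted p under 0.05, and 0 of 12812 genes passed in all (0%). In the single-cell wells that were left out, Umod was at 736 and 18.1 CPM in diabetes experiments 1 and 2, against 1904 and 756 in control. The 2 calls were also lost when empty wells had to meet the same limits on genes and mitochondrial reads, at log2 differences of -1.17 (Fxyd2) and -2.64 (Umod) with an edgeR adjusted p = 0.916 for both.

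**Figure D5:**
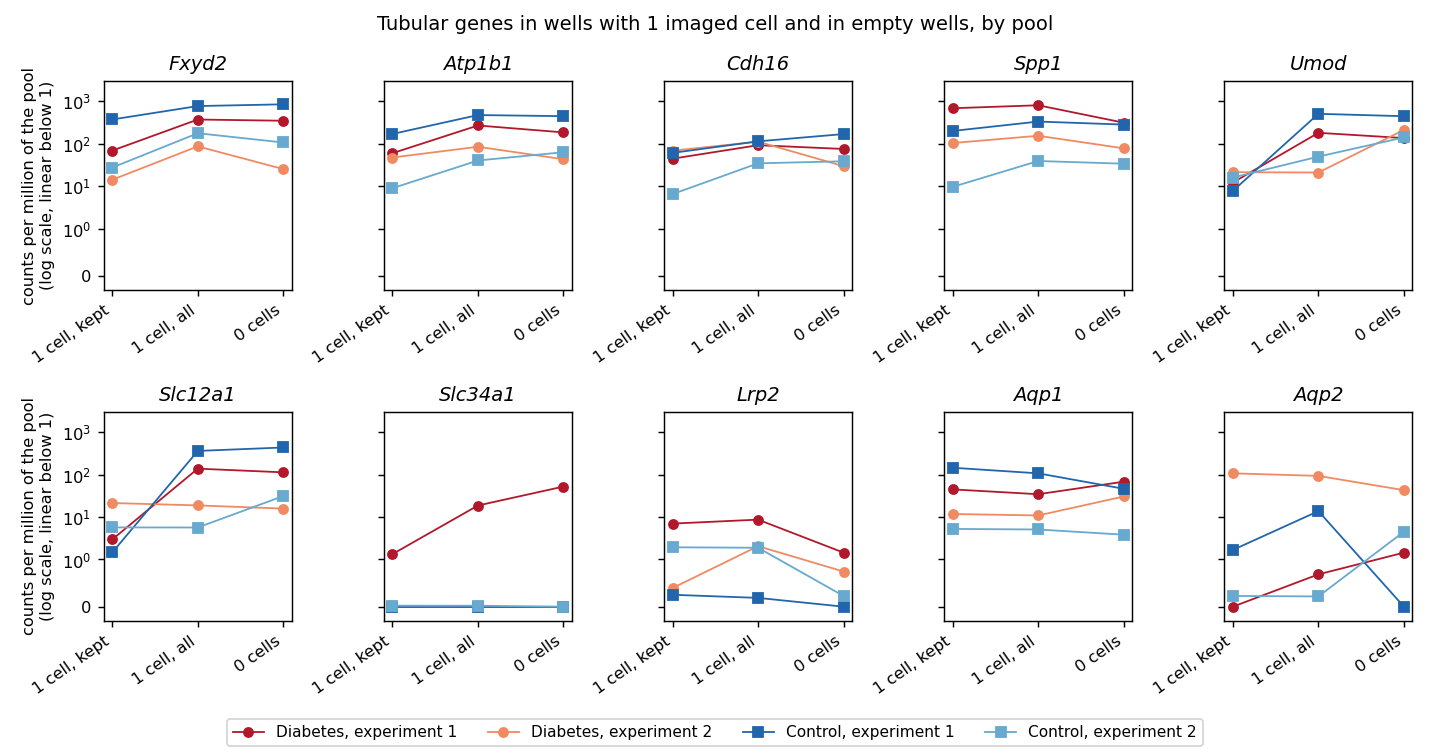
CPM of each gene (log scale, linear below 1) in the summed reads of each pool, for kept single-cell wells, all single-cell wells and empty wells, with lines joining the values of a pool. Umod is at most 21.4 CPM in kept wells and at least 136 CPM in empty wells of every pool, and between 21 and 507 CPM over all single-cell wells. The 211 CPM of empty wells in diabetes experiment 2 come to 99.3% from 1 well.

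Levels set on another base ran the other way. Experiment 1 had counts of spike-in RNA, so reads can be set against them. The 10 genes had 5.4 reads per 1000 spike-in reads in kept diabetes wells and 3.79 in kept control wells, against 0.409 in empty diabetes wells and 0.854 in empty control wells. Single-cell wells that were left out had 21.5 in diabetes and 20.3 in control. Reads of all genes together were at 5822 and 3951 per 1000 spike-in reads in kept diabetes and control wells, against 316 and 320 in empty diabetes and control wells. Kept wells thus held more tubular reads than empty wells per spike-in read, but as a smaller part of their total. Per well, the median was 0.156 in kept diabetes wells and 0 in kept control wells, against 0.0688 and 0 in empty wells, so the sums rest on a minority of wells.

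The share of wells with any read of the 10 genes depended on depth in the same way. Without thinning, 313 of 639 kept wells (49%) and 286 of 588 empty wells (48.6%) had 1 count or more. With wells thinned to 2000 reads, 81 of 638 kept wells (12.7%, exact 95% interval 10.2% to 15.5%) and 125 of 417 empty wells (30%, 25.6% to 34.6%) had one. Wells with under 2000 reads were dropped. This left 105 of 184 empty diabetes wells and 103 of 195 empty control wells in experiment 1, and all empty wells in experiment 2. After thinning, the share was 22.7% and 8.51% in kept wells of diabetes experiments 1 and 2 and 17.6% and 7.39% in those of control, against 39% and 22.4% in empty diabetes wells and 33% and 25.2% in empty control wells. It was lower in kept wells in each pool. Intervals cover counting error over wells, which are not replicates of a condition. The share of a well's reads on the 10 genes was above the 95th percentile of the same pool's empty wells in 16 of 639 kept wells (2.5%) and in 23 of 194 wells that were left out (11.9%). It was above the highest empty well in 1 kept well and 3 of those left out.

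Wells with more cells varied between pools. The 24 wells with 2 cells in diabetes experiment 2 had 27.8 CPM of the 10 genes, and the 23 in diabetes experiment 1 had 988. In control, the 12 wells with 2 cells of experiment 1 had 14.6 CPM and the 39 of experiment 2 had 689. Of wells with more than 2 cells or debris, the 40 of diabetes experiment 2 had 245 CPM and the 32 of control experiment 2 had 1416. In each of these groups 1 well held most of the reads. Its part was 71.3% and 67.5% in the wells with 2 cells of diabetes experiments 1 and 2, and 70% and 58.7% in those of control. In wells with more than 2 cells or debris it was 73.8% in diabetes experiment 2 and 87.9% in control experiment 2.

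Between diabetes and control, none of the 9 genes tested in kept single-cell wells passed edgeR's test. In kept single-cell wells, Spp1 was at 686 and 104 CPM in diabetes experiments 1 and 2, against 200 and 9.65 in control. It was higher in diabetes within each experiment, but the groups overlapped across experiments, and 1 well held 52.8% and 90.9% of the reads in the diabetes pools. The log2 difference was 2.67 (SE 0.48), with an adjusted p = 0.199 by edgeR's quasi-likelihood test over 15330 genes. Fxyd2 was at 69 and 14.2 CPM in diabetes, against 373 and 27.5 in control, lower within each experiment (log2 difference -1.63, SE 0.47, edgeR adjusted p = 0.515). The count of 0 of 9 stands beside 12 of 15330 genes (0.0783%). Unadjusted, 2 of the 9 had a p under 0.05, and DESeq2 called 2, Spp1 as higher and Fxyd2 as lower, among 562 genes (3.67%). Aqp2 was at 0 and 107 in diabetes, against 1.68 and 0.227 in control, and 99.5% of the second value came from 1 well. Cdh16 was at 44.5 and 68.5 CPM in diabetes, against 60.9 and 6.51 in control, lower in diabetes in experiment 1 and higher in experiment 2 (log2 difference 1.54, SE 1.09, edgeR adjusted p = 0.916). In diabetes experiment 2, 1 well held 84.4% of the Cdh16 reads and 82.9% of the Atp1b1 reads, and the others had 10.8 and 8.22 CPM. Without tubular-like wells the log2 difference of Cdh16 was 0.02. Umod and Slc12a1 were higher in diabetes within each experiment, with log2 differences of 0.60 (SE 0.80) and 1.55 (SE 1.2). In diabetes experiment 2, however, 1 well held 68% of the Umod reads and 89.6% of the Slc12a1 reads, and the other 187 wells had 6.94 and 2.25 CPM, below the 16 and 5.7 CPM of control experiment 2. Atp1b1 and Aqp1 were lower in diabetes in experiment 1 and higher in experiment 2, at 0.51 (SE 1.15) and -0.21 (SE 0.80). Lrp2 was at 7.01 and 0.395 CPM in diabetes, against 0.252 and 1.94 in control, and all 94 reads of control experiment 2 lay in 1 well. In sums over wells, more cells of a type and more RNA per cell cannot be told apart.

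Other genes of the tubule and of immune cells were set beside these values. Of the loop and distal tubule genes outside the 10, 9 of 14 were tested between diabetes and control in kept wells and 0 passed, with a median log2 difference of 1.99, beside 0.05 over all genes. Of the general tubular list 12 of 15 were tested, 0 passed, and the median was 0.55. Of the proximal list 5 of 20 were tested, 0 passed, and the median was 0.46. Of the collecting duct list 4 of 13 were tested, 0 passed, and the median was 2.11. Summed over its genes, the collecting duct list was at 5.59 and 98.7 CPM in kept diabetes wells, against 22.1 and 1.54 in control. The general list was at 84.9 and 101, against 122 and 29.7. Both were thus lower in diabetes in experiment 1 and higher in experiment 2. The sums of the loop and distal tubule list and of the proximal list were higher in diabetes within each experiment. The list of other sodium pump genes had a median of -1.24, with 8 of 10 tested and 0 passed. Its summed level, however, was higher in diabetes within each experiment, at 1012 and 837 CPM in kept diabetes wells, against 825 and 679 in control. Markers of other cells also ran with condition. The podocyte list was at 1221 and 2751 CPM in kept diabetes wells, against 8343 and 6070 in control, and the mesangial list at 674 and 1718, against 2897 and 3523. Genes of red blood cells were at 6452 and 3502 CPM in diabetes, against 0 and 13.6 in control. None of the genes of these 3 lists passed. The immune list, as a whole, was at 14036 and 1882 CPM in kept diabetes wells, against 1324 and 296 in kept control wells, and at 6912 and 1866 CPM in empty diabetes wells, against 749 and 168 in empty control wells. Of its 12 genes 12 were tested and 1 rose, the macrophage lysozyme gene Lyz2 (log2 difference 4.30, SE 0.43, edgeR adjusted p = 0.0434). Spp1, which macrophages can also make, ran in the same direction within each experiment. Immune-like wells held 671 of the 4610 Spp1 reads in kept wells of diabetes experiment 1 and 4 of the 3964 of experiment 2. In control they held 0 of 951 and 43 of 467. Tubular-like wells had 12089 and 2954 CPM of Spp1 in diabetes experiments 1 and 2, against 4109 and 594 in control. The part of immune cells in the Spp1 difference was not tested.

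In empty wells the test also called none of the 8 genes tested, beside 0 of 11382 genes (0%), and DESeq2 called 0 of the 8, beside 147 genes (1.29%). Fxyd2 was at 348 and 25.3 CPM in diabetes experiments 1 and 2, against 848 and 107 in control, so it was lower in diabetes within each experiment in empty wells too (log2 difference -1.68, SE 0.49, edgeR adjusted p = 0.341). Slc12a1 was at 113 and 15.8 in diabetes, against 435 and 31.2 in control (log2 difference -1.47, SE 0.59, edgeR adjusted p = 0.611). Of the 8 genes 3 had an unadjusted p under 0.05 (Fxyd2, Slc12a1 and Aqp2). Without the first control pool, the log2 difference of Fxyd2 was 0.48 in kept wells and 0.75 in empty wells. That fit has no block and sets both diabetes pools against control experiment 2 alone. Within experiment 2 Fxyd2 was lower in diabetes, at 14.2 against 27.5 CPM in kept wells and 25.3 against 107 in empty wells. Column 5 of control experiment 1 alone had 5 peak wells. Its empty wells had 13797 CPM of the 10 genes, against a median of 669 over the columns of that pool. The part of this column in the Fxyd2 difference was not tested.

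The difference between kept and empty wells was tested for a dependence on condition and on experiment. No gene of the 7 tested passed in either fit, beside 0 of 12509 genes (0%) in each, by edgeR. Unadjusted, 3 of the 7 had a p under 0.05 by condition and 1 (Slc12a1) by experiment. DESeq2 called 0 by condition and 1 by experiment, Slc12a1, with a log2 difference of 5.73 between experiments 2 and 1.

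The genes whose levels over kept wells were most like the summed level of the 10 were Kng2, ccdc198, Pdzk1ip1, Wfdc2 and Ldhb, with mean Spearman correlations over the 2 experiments of 0.36, 0.35, 0.32, 0.32 and 0.32 among 11266 genes. For Umod they were Kng2 (0.37), Slc12a3 (0.31), the sodium-chloride cotransporter of the distal tubule, and Klk1 (0.29). For Aqp2 they were Tmem52b (0.33), Car2 (0.31) and Pdzk1ip1 (0.29). For Slc34a1, with reads in 7 of the 639 wells, the correlations of the leading genes, Hbb-bt, Apex2 and Hbb-bs, were at most 0.26. Those of the haemoglobin genes Hbb-bt and Hbb-bs were 0.53 and 0.48 in experiment 1 and -0.02 in experiment 2, and that of Apex2 was 0.31 and 0.18. The points are 248 and 391 wells of experiments 1 and 2, which share depth and neighbours, and in counts this sparse correlations of this size are descriptions.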

How the data were processed

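RNA of single C1 wells was sequenced. The deposited gene tables hold expected counts per gene and well (fractions occur), and the deposited spike-in table, for experiment 1, holds counts. Per the submitters' processing notes, the tools were featureCounts 1.5.1, BWA 0.7.17-r1188, STAR 2.4.2a and cutadapt 1.11, with build mm10. The sources used here give neither the use of strand nor how reads were split between genes. Genes were named through GENCODE M21 (45229 of 45792 identifiers). Expected counts were summed per pool and well kind, rounded, and tested with edgeR 4.0.16 (quasi-likelihood, robust, TMM, filterByExpr, Benjamini-Hochberg). SE is the log2 difference over the root of F. DESeq2 1.42.0 was an alternative. Both conditions of an experiment shared a chip, so experiment or pool was a block. Deviations from group means correlated at 0.15 (single-cell) and 0.18 (empty wells) within an experiment. The fits between conditions and between well kinds were also run on simulated pool sums with known changes. That simulation did not model reads carried by 1 well, so it does not show how the tests behave for the 10 genes. Kept wells were clustered without the 10 genes (Scanpy 1.11.5, Leiden, resolution 0.8) and named by marker lists. A name needed 3 detected markers, more markers among the 50 leading genes than any other list, and a marker among the first 10. No doublet caller was run, since cells were imaged. Reads carry no molecular identifiers, so intervals cover counting error only. Each pool is 1 sample made from 3 mice, and wells are not replicates. The members and lists were chosen with earlier results of these data known, and peak wells after their reads were seen. All 10 genes are named in each comparison; other genes follow a rule of smallest p, highest fold or highest correlation. RefSeq gave promoters for 8 of the 10 genes.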

Additional observations from a re-analysis of the deposited data

Results flagged for a closer look

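For 2 genes, kept single-cell wells and empty wells differed in opposite directions in the 2 conditions, in every pool. Spp1 was at 686 and 104 CPM in kept wells of diabetes experiments 1 and 2, above the 313 and 77.9 of their empty wells, while in control it was at 200 and 9.65 in kept wells, below the 283 and 33.9 of their empty wells. The difference of the differences was 1.98 on the log2 scale, with an unadjusted p = 0.00448 and an adjusted p = 1 by edgeR. Aqp1 was at 44.8 and 11.8 CPM in kept wells of diabetes, below the 68.1 and 30.5 of their empty wells, and at 145 and 5.25 in kept wells of control, above the 46.3 and 3.84 of their empty wells. Its difference of differences was -2.02, with an unadjusted p = 0.0195 and an adjusted p = 1 by edgeR. Neither passed the correction, and how often this pattern of directions occurs among all genes was not counted. Without the well with the most Spp1 reads of each kind, Spp1 in diabetes experiment 2 was at 9.66 CPM in kept and 32.4 CPM in empty wells, so its direction there rested on 1 well. Without the well with the most Aqp1 reads of each kind, Aqp1 in control experiment 2 was at 2.76 CPM in kept and in empty wells alike. Its difference there was then gone. In kept wells, 1 well held 52.8% and 90.9% of the Spp1 reads of the diabetes pools and 50.9% of the Aqp1 reads of control experiment 1.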

How the results depend on the processing

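Of 361 values of single genes under alternatives, 290 kept their direction and side of the threshold, 43 turned direction, 15 newly passed and 13 no longer passed. The causes were not tested, and counts of genes called with 2 pools a condition moved widely. Diabetes against control in kept wells (12 genes) gave 562 by DESeq2, 36 with no filter on low counts, 86 with wells thinned to 2000 reads, 1 with no replicate block, 0 with no filter on wells, 0 at 15% mitochondrial reads, 3 without tubular-like wells and 2 without wells within 2 rows of a peak well. Leaving out a pool, which also drops the block, gave 9 to 170. In empty wells (0 genes) the counts were 147 by DESeq2, 169 with no filter on low counts, 10 without wells near a peak well, and 0 to 145 with a pool left out. Kept against empty wells (28 genes) gave 87 by DESeq2, 43 with no filter on low counts, 44 without tubular-like wells, 0 with no replicate block, 0 with no filter on wells, 0 with filtered empty wells, 3 with no filter on wells but without the wells beside peak wells, and 0 to 32 with a pool left out. Its dependence on condition (0) gave 22 by DESeq2 and 40 with no filter on low counts, and that on experiment (0) gave 1 by RLE scaling, 23 by DESeq2, 59 with no filter and 2 after thinning.

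Fxyd2 and Umod were lower in kept than in empty wells under each pool left out, from -2.17 to -1.70 and from -4.49 to -3.61 on the log2 scale. Fxyd2 missed the threshold without control experiment 1, control experiment 2 or diabetes experiment 1 (edgeR adjusted p = 0.244, 0.15 and 0.313), and Umod without control experiment 2 or diabetes experiment 1 (0.0512 and 0.313). With no pool block their differences were -1.87 and -4.34, and neither passed. Directions against empty wells turned with no filter on wells (Fxyd2 0.40, Atp1b1 0.04, Cdh16 0.15, Spp1 0.50). They turned further when the wells beside peak wells were also dropped (1.74, 1.54, 1.67, 2.03, and Slc12a1 0.95), a choice that keeps peak wells for their own reads and so is no test. With no block Spp1 was at 0.14 and Aqp1 at 0.09, and Aqp1 ran from -0.86 to 0.14 with a pool left out. By experiment, Atp1b1 was at -0.09 after thinning.

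Without the well with the most reads of the 10 genes in each pool and kind, Fxyd2 (-2.16) and Umod (-3.07) no longer passed against empty wells and Atp1b1 (-2.76) did.

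Between diabetes and control in kept wells, that choice gave -0.07 for Atp1b1 and -1.52 for Aqp2. Atp1b1 also turned after thinning (-0.14), with no block (-0.62), without tubular-like wells (-0.49) and at 15% mitochondrial reads (-1.36). At 15% Cdh16 was at -1.09 and Aqp1 at 0.33, with no filter on wells Umod was at -1.29, without wells near a peak well Aqp1 was at 1.09, and without tubular-like wells Aqp2 was at -1.41. With a pool left out the log2 differences ran from -3.59 to 0.48 (Fxyd2), -1.54 to 2.53 (Atp1b1), -0.04 to 1.29 (Umod), -0.37 to 3.28 (Slc12a1), -1.39 to 4.10 (Lrp2), -2.43 to 2.32 (Aqp1) and -7.12 to 7.93 (Aqp2). In empty wells they ran from -4.19 to 0.75 (Fxyd2), -2.51 to 0.83 (Atp1b1), -1.81 to 0.43 (Cdh16), -0.97 to 2.5 (Spp1), -1.41 to 0.37 (Umod), -3.84 to 0.99 (Slc12a1) and -0.03 to 3.66 (Aqp1), and without wells near a peak well Umod was at 1.15 and Slc12a1 at 0.03. Spp1 passed in kept wells after thinning (2.94), as Aqp2 did without diabetes experiment 1 (7.39) and Fxyd2 in empty wells without that pool (-4.19).

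Wells with a read of the 10 genes made up 12.7% of kept and 30% of empty wells in the main setting. At 10000 reads, which 612 kept and 228 empty wells had, they made up 24.3% and 41.2%. They made up 49% and 48.6% without thinning, and 35.7% of each at 2 counts or more. Tubular-like wells (19) numbered 0 at a resolution of 1.2, 0 with the 10 genes left in and 54 with no filter on wells, and wells above the empty wells' 95th percentile (16) numbered 6 at the 99th. The alternatives that drop wells near peak wells or the well with the most reads were chosen after seeing the data. In experiment 1, where empty wells had medians of 2397 and 2212 reads, a well's share is known only coarsely.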
